A study of Mus musculus with 179 samples.

Results

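Cells in division were compared with cells outside it among single cells of mouse pancreatic acinar organoids. Of all cells measured, 18 had under 40000 UMIs (unique molecular identifiers, each standing for 1 captured transcript molecule) and 6 more carried many fibroblast transcripts, and these were left out. The others were chosen by measured values, the summed level of 21 mitosis genes, given in CPM (UMIs of a gene scaled to 1000000 UMIs of the cell). At 2500 CPM or more, 54 cells were called dividing. Below 500 CPM, 59 cells were called non-dividing, and the 42 cells in between were called intermediate.

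All cells came from 1 group: acinar cells of the exocrine pancreas from wild type C57BL6 mice, freed by digestion, purified on a density gradient and kept for 9 days as organoids in Matrigel, a gel of basement membrane proteins. RNA was read by Smart-seq3, as the transcript arm of scNMT-seq, whose methylation and accessibility reads were not analysed here. No animal, culture or plate is named in the labels. The cells therefore count as 1 sample and are not replicates, and differences carry no significance test. Pooled levels or those of the median cell are given for the members named, with counting intervals and ranges over cells for a few of them only.

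Acinar cells make and store the digestive enzymes of the pancreas and seldom divide in the healthy adult gland. After injury, or in three-dimensional culture, they lose enzyme expression, take on duct-like features and can re-enter the cell cycle, a change known as acinar-to-ductal metaplasia. A dividing cell copies its DNA in S phase and then builds the spindle that separates the chromosomes in mitosis. The genes for the second step are switched on late, in G2, by complexes that bind CHR and CCAAT elements close to the start of transcription, whereas many genes for DNA copying carry sites for E2F factors.

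The 21 genes that set the classes include Mki67 (the chromosome surface protein Ki-67), Top2a (the topoisomerase that untangles DNA), Ube2c (a ubiquitin-conjugating enzyme of mitotic exit) and Cdk1 (the mitotic cyclin-dependent kinase). Promoters of these 4 markers are shown because the letters TTTGAA or TTCGAA of the CHR element and CCAAT of the CCAAT box both occur in each. Each run below covers the 150 bases before the RefSeq start site in GRCm38.p6, read on the gene's strand, and capitals mark CHR or CCAAT letters on either strand (TTCAAA and ATTGG are their reverse complements). Other genes of the 21, among them Aurka, Bub1, Ccnb1, Ccnb2, Hmmr and Plk1, have CCAAT letters but no CHR letters in this window. Mki67 lies on the minus strand (chr7:135716380-135716529), Top2a on the minus strand (chr11:99024190-99024339), Ube2c on the plus strand (chr2:164769779-164769928) and Cdk1 on the minus strand (chr10:69352913-69353062).
Mki67: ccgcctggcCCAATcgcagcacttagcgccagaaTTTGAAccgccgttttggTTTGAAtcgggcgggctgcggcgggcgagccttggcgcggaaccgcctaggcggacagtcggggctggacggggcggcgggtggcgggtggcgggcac
Top2a: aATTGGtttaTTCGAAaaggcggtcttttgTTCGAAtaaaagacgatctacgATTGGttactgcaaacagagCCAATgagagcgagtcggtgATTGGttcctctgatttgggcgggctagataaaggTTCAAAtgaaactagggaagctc
Ube2c: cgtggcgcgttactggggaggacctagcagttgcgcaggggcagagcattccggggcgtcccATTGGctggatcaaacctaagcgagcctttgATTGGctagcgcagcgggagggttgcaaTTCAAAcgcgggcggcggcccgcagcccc
Cdk1: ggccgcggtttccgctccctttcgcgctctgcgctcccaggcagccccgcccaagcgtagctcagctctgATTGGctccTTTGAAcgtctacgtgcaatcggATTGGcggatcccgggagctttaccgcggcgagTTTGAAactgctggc

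Promoters of 3 genes that were not used to set the classes are shown for comparison. Cep55, which acts in the final cut between daughter cells, is on the plus strand (chr19:38054891-38055040, 1 of its 2 listed starts) and has CHR letters. E2f8, a repressor of late S phase, is on the minus strand (chr7:48881597-48881746) and has CHR and CCAAT letters. Clspn, a replication checkpoint protein, is on the plus strand (chr4:126556830-126556979) and has the E2F-type letters CCGCCAAA, the reverse complement of TTTGGCGG, with CCAAT letters and no CHR letters.
Cep55: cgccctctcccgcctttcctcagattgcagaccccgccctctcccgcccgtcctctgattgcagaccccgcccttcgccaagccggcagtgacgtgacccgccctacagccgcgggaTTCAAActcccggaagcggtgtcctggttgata
E2f8: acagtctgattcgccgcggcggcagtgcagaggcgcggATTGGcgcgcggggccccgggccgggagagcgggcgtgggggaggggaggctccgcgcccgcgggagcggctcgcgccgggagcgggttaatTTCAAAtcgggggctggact
Clspn: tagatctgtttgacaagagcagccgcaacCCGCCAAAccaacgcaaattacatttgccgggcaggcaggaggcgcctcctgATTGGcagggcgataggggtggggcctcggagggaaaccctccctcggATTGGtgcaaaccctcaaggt

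In the full 300-base promoters of the table (250 bases before to 50 after each start), CHR letters occurred in 13 of the 17 promoters matched among the 21 genes (76.5%). They occurred in 34 of 48 promoters of other mitosis and G2 genes (70.8%), in 10 of 52 of DNA replication genes (19.2%) and in 6316 of all 32851 promoters (19.2%). Letters of the E2F type (TTTGGCGC, TTTCCCGC, TTTGGCGG or TTTCCCGG, both strands) had another distribution, with 19 of 52 replication promoters (36.5%), 4 of 48 of the other mitosis genes (8.33%) and 3.32% of all promoters. CCAAT letters were found in 88.2% of the promoters of the 21 genes, 36 of 48 of those of other mitosis genes, 57.7% of replication promoters and 37.4% of all. Of 1288 promoters of higher genes outside the cell cycle lists 267 had CHR letters (20.7%). Among 60 promoters of genes more than 10 times higher in dividing cells and outside the cell cycle lists, 32 had CHR letters (53.3%), against 10.6% of 1142 promoters of genes lower in dividing cells and 1348 of 9718 of all genes described (13.9%). Some genes have several listed promoters, so promoters rather than genes were counted. A match gives letters only and is not a site of binding.

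**Figure D1:**
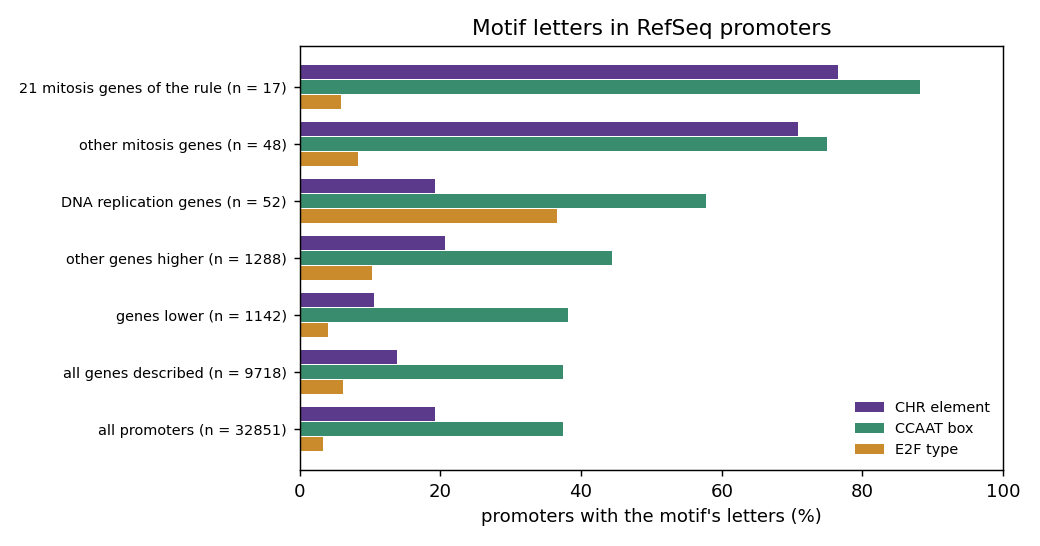
Share of RefSeq promoters (%, horizontal axis) with the letters of the CHR element, the CCAAT box or the E2F type, for sets of genes (rows, n = promoters). CHR letters were in 76.5% of promoters of the 21 genes and 70.8% of those of other mitosis genes, against 19.2% of replication promoters and 19.2% of all promoters, while E2F-type letters were most frequent in replication promoters (36.5%).

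The summed level of the 21 genes ran from 2671 to 8753 CPM in dividing cells (median 5032), from 528 to 2452 in intermediate cells (median 1374) and from 20.9 to 483 in non-dividing cells (median 228). No gap separated the classes: the cells nearest the lower limit had 483 and 528 CPM, and those nearest the upper limit had 2452 and 2671 CPM. In the levels of the 4 markers, used here as a description of what the sorting did, Mki67 ranged from 84.3 to 859 CPM in dividing cells (median 330) and from 0 to 37.7 in non-dividing cells (median 0). Top2a had medians of 740 and 10.1 CPM, Ube2c of 647 and 11.99 CPM, and Cdk1 of 402 and 10.04 CPM. All 54 dividing cells had at least 1 UMI of each of the 4. After thinning every cell to 40000 UMIs, Mki67 was seen in 54 of 54 dividing, 36 of 42 intermediate and 8 of 59 non-dividing cells. Stmn1, a microtubule regulator, was the member of the 21 with the least contrast, at 342 against 97.9 CPM in the median cells and no fewer than 86.7 CPM in any intermediate cell.

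Depth moved with the classes. Dividing cells held 45864 to 329522 UMIs (median 197848), intermediate cells a median of 166072 and non-dividing cells 43419 to 274068 (median 153722). The median number of genes seen was 12432, 11677 and 11255 in the same order, and mitochondrially encoded genes took 0.875%, 0.896% and 1.13% of UMIs. Larger cells and a better capture of RNA cannot be told apart in these counts, and all levels below are relative to the total of the cell. Titles numbered up to 96 gave 26 dividing of 77 classed cells and titles from 97 gave 28 of 78.

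**Figure D2:**
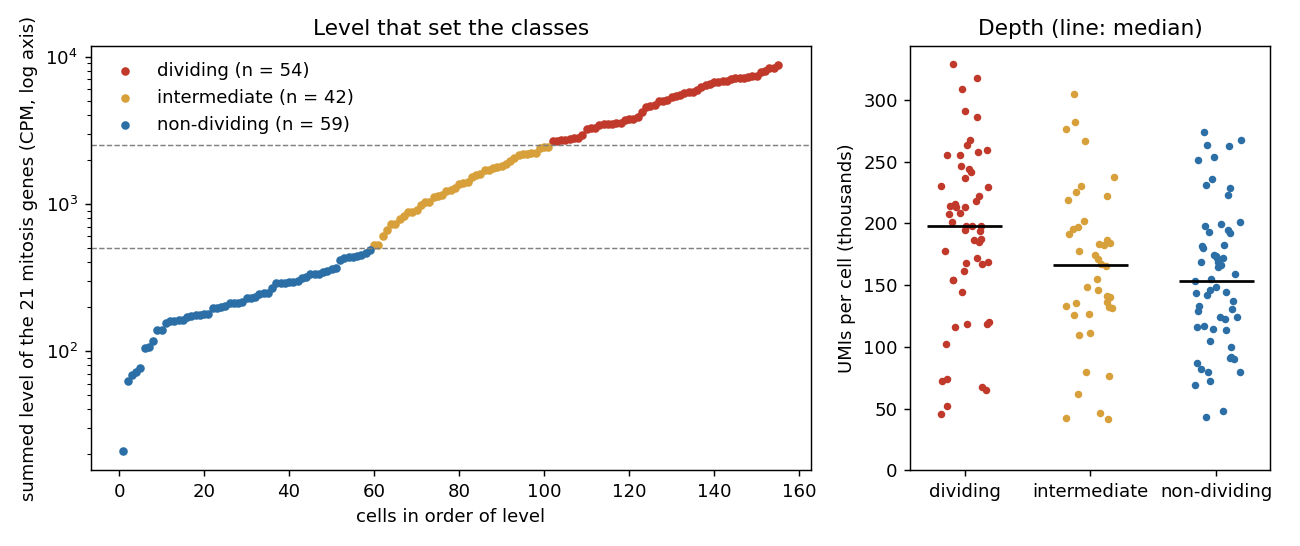
Left, summed level of the 21 mitosis genes in each classed cell (log axis, CPM) in order of level, with dashed lines at 500 and 2500 CPM; right, UMIs per cell, 1 point a cell and a line at the median. Levels rise without a gap from 20.9 to 8753 CPM, and median depth was 197848, 166072 and 153722 UMIs in dividing, intermediate and non-dividing cells.

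All cells of the 3 classes carried UMIs of Epcam, Krt8 and Krt18, which mark simple epithelium. Markers of other cell types were low: of 10 fibroblast markers none reached 10 CPM over the classes, the list summed to at most 191.99 CPM in a dividing and 274 CPM in a non-dividing cell, and Dcn was at 0 in every class. Cells rich in fibroblast transcripts had been left out beforehand, so the low fibroblast levels follow from that choice and are no check of the classes. Of 8 immune markers none reached 10 CPM, the sums reached 108.1 and 259 CPM, Ptprc (CD45) had 1 UMI in dividing and 3 in non-dividing cells, and Laptm5 had none. Genes of DNA replication, which the sorting did not use, check the names of the classes. Their summed level was 1958 to 9947 CPM in dividing cells and 200 to 4945 CPM in non-dividing cells, and 7 of the 59 non-dividing cells reached the lowest dividing cell. The non-dividing class thus means low mitosis transcripts, and some of its cells carried replication transcripts at levels found in dividing cells. So did 31 of the 42 intermediate cells. The dividing class means high mitosis transcripts, and replication transcripts do not separate it from the intermediate class.

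For each gene the UMIs of a class were pooled and expressed in CPM, and the median cell was taken as well. A gene is called higher or lower in dividing cells when both the pooled ratio and the ratio of median cells were at least 1.5 in the same direction. Of 10287 genes with at least 10 CPM over the 3 classes, 1573 were higher (15.3%) and 1079 lower (10.5%), and the median log2 ratio was 0.01. These genes come from cells sorted by their own transcripts, so the shares are a description. The count of each list below is to be read beside these shares. Above a ratio of 10 there were 76 higher genes outside the 4 cell cycle lists, and 26 genes were lower to under 1 in 5.

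**Figure D3:**
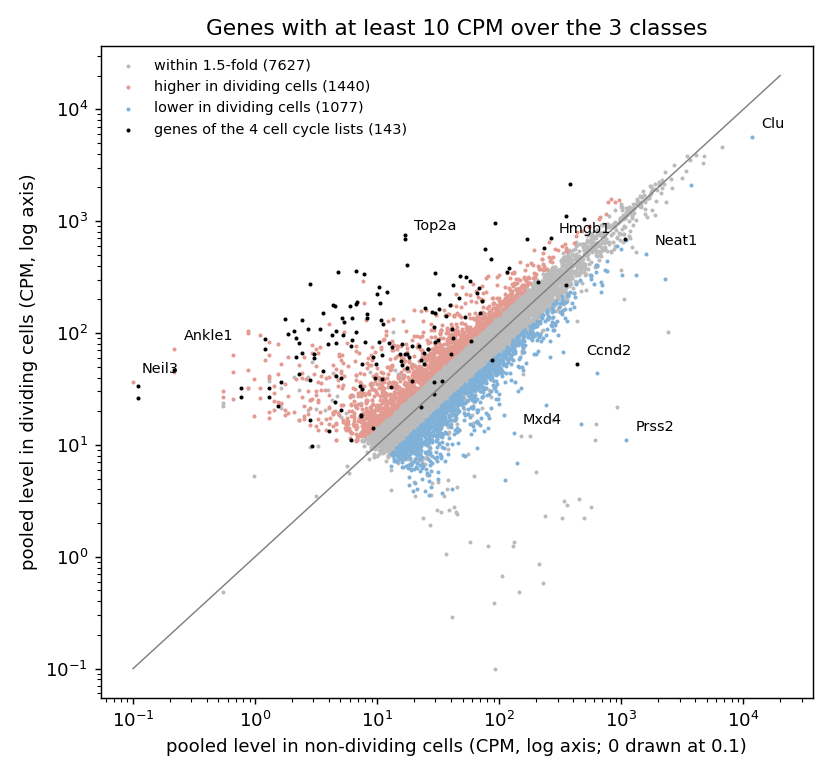
Pooled level of 10287 genes in non-dividing (horizontal) and dividing cells (vertical), both in CPM on log axes, with the line of equal level; a level of 0 is drawn at 0.1. Cell cycle genes (black) and other higher genes reach ratios far above 10, while lower genes (blue) stay closer to the line, with Mxd4 and Ccnd2 among the farthest and Prss2 set apart by 1 cell.

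Mitosis genes beyond the 21 were higher without exception: 53 of 53 described members of the list passed, beside 15.3% of all genes, with a median log2 ratio of 4.06. Their summed level was 6735 to 19656 CPM in dividing cells (median 14077), 2688 to 11721 in intermediate cells (median 7339) and 1083 to 5399 in non-dividing cells (median 2530.5), so that no dividing cell fell within the non-dividing range. Ttk, the spindle checkpoint kinase MPS1, had 0 to 85.4 CPM in dividing cells (median 29.1) and 1 UMI in all non-dividing cells together. Pooled, that is 33.8 against 0.109 CPM, a ratio of 310 with a 95% counting interval of 55.3 to 12294. Nuf2, a kinetochore protein that holds microtubules, had a median of 45.8 CPM in dividing cells and 2 UMIs in the non-dividing class (ratio 213, 58.8 to 1767). Aspm, which organises spindle poles, had a pooled level of 72.7 against 1.20 CPM and only 4.66 CPM in intermediate cells. Kif4, a chromosome kinesin, had 130.8 against 2.40 CPM, with 37.7% of its dividing-class UMIs in 1 cell; the ratio was 54.5, and 39.7 without the top cell of each class. The most abundant member was Tuba1b, an alpha-tubulin of the spindle and of the resting cytoskeleton, at 303 to 3047 CPM in dividing cells (median 2163) and 52.3 to 1100 in non-dividing cells (median 277), a pooled ratio of 5.57.

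DNA replication genes were also higher throughout, with 55 of 55 described members past the fold and a median log2 ratio of 2.04. Their highest level was in the intermediate class, whose median cell had 6162 CPM, against 4111 CPM in the median dividing and 816 CPM in the median non-dividing cell. In 29 of 42 intermediate cells the level exceeded the dividing median. Clspn ran at 60.7 CPM pooled in dividing, 74.1 in intermediate and 2.18 in non-dividing cells. E2f8 was at 32.2, 36.6 and 1.31 CPM, and E2f7, its partner repressor, at 27.02, 29.1 and 1.31 CPM. E2f7 passed the fold on all UMIs and did not on cells thinned to 40000 UMIs, where its pooled ratio was 29.5. Rrm2, the regulated subunit of ribonucleotide reductase, was at 79.3, 69.6 and 3.93 CPM, and its partner Rrm1 at 317, 245 and 53.1 CPM. Dut, which clears dUTP, was at 289, 255 and 57.1 CPM. Within the 54 dividing cells the replication level and the level of the 21 genes ran in opposite directions (Spearman's rho -0.64, Pearson's r -0.63). The 2 levels ran together within the 42 intermediate cells (rho 0.37, r 0.40) and the 59 non-dividing cells (rho 0.71, r 0.59). These correlations are across cells that share a library preparation and the same total as denominator. The class limits were set on the level of the 21 genes itself, which restricts its range in each class. UMIs per cell had a rho of -0.08 with the replication level in dividing cells.

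Outside the cell cycle lists, Neil3 was the 1 gene of the 12 highest with no UMI at all in non-dividing cells. Neil3 (chr8:53586867-53639065, minus strand, GRCm38) encodes a DNA glycosylase that opens crosslinks at replication forks. It had 378 UMIs in dividing cells (0 to 126.3 CPM, median 29.9, none in 11 of 54 cells) and 0 in non-dividing cells, at least 111.1-fold higher when 3 UMIs are allowed for the class. Ankle1 (chr8:71406010-71409904, plus strand), a nuclease that cuts chromatin bridges at the midbody, had 748 UMIs against 2, a ratio of 330 (counting interval 90.97 to 2728), and 53 of 54 dividing cells carried it. Esco2, which acetylates cohesin in S phase, had 469 UMIs against 2 (ratio 207, 56.9 to 1712). Neil3, Ankle1 and Esco2 were at 15.3, 17.6 and 26.2 CPM in intermediate cells, between the levels of the other classes.

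Pif1, a DNA helicase, was at 103.9 CPM in dividing, 4.37 in intermediate and 0.872 in non-dividing cells. Cdca2, which directs a phosphatase to chromatin at mitotic exit, was at 99.6, 30.3 and 0.872 CPM. Nek2, a centrosome kinase, was at 83.4, 23.01 and 1.31 CPM, and Ska1, of the kinetochore, at 44.7, 11.8 and 0.654 CPM. Pimreg was at 63.5 against 0.654 CPM and Sapcd2 at 95.3 against 1.09 CPM. Cep55, whose promoter is printed above, was at 30.6 against 0.545 CPM, and Iqgap3 at 46.4 against 0.872 CPM. Hist1h2ao, a replication-dependent histone H2A gene, was at 79.8, 32.04 and 1.53 CPM. It belongs to a family of near-identical copies, so its reads may be shared among them. In each of these genes the median non-dividing cell had no UMI.

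The genes that govern entry into the cycle were mixed. Of 14 described G1 cyclins, kinases, RB family members and Myc genes, 4 were higher and 2 lower (15.3% and 10.5% over all genes). Ccnd2 (chr6:127125162-127152193, minus strand), a D-type cyclin that activates CDK4 and CDK6, had 0 to 808 CPM in dividing cells (median 6.22) and 0 to 2419 CPM in non-dividing cells (median 35.5). No UMI was found in 21 of 54 dividing and 15 of 59 non-dividing cells, and the ranges overlapped widely. Pooled, it was 52.9 against 436 CPM, a ratio of 0.12 (0.11 to 0.13), and 150.1 CPM in intermediate cells. The ratio varied more between sets of cells than its counting interval covers: it was 0.048 among titles up to 96 and 0.46 among titles from 97, the extremes of the 19 other settings, and stayed past the fold in each. Settings that change only the fold, the filter or the measure used for the call leave the pooled ratio of any gene as it is. Ccnd1, the most abundant D cyclin, had a median of 622 CPM in dividing and 856 CPM in non-dividing cells, within the fold (pooled 690 against 1078). Ccnd3 was lower (57.5 against 87.2 CPM). Cdk2, the S phase kinase, was higher (18.5 against 7.31 CPM), and so were the pocket protein gene Rbl1 (31.7 against 7.52 CPM), Rb1 (14.04 against 9.27 CPM) and Tfdp1, the partner of E2F factors (37.5 against 19.4 CPM). The call of Cdk2 was lost on cells thinned to 40000 UMIs, at a ratio of 2.73. Myc differed little between the extremes, at 21.8 and 22.9 CPM, with 39.9 CPM in intermediate cells.

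Inhibitors of cyclin-dependent kinases and p53 targets were lower as a list, with 10 of 20 described members lower (10.5% over all genes) and 3 higher. The list summed to a median of 1090 CPM in dividing, 951 in intermediate and 1905 in non-dividing cells, and 49 of 54 dividing cells lay under the non-dividing median. Cdkn1a (chr17:29090976-29100727, plus strand), which encodes the inhibitor p21, ran from 17.9 to 1586 CPM in dividing cells (median 152.97) and from 17.2 to 2627 CPM in non-dividing cells (median 519). The ranges overlapped, 47 of 54 dividing cells were under the non-dividing median, and the pooled ratio was 0.42 (0.40 to 0.44). Among titles up to 96 alone its pooled ratio was 0.42 and the median cells did not pass. Btg2, an antiproliferative cofactor induced by p53, had medians of 34.3 and 166.97 CPM (pooled 60.95 against 260 CPM), and its relative Tob1 of 5.43 and 11.9 CPM. Ccng1, Cdkn2b, Trp53inp1, Zmat3, Gadd45a, Sesn2 and Plk2 were the other 7 that were lower, at pooled ratios of 0.42 to 0.66. Bax (209 against 237 CPM) and Mdm2 (52.97 against 73.8 CPM), also p53 targets, were within the fold, as was Trp53 itself (33.3 against 32.5 CPM). The 3 higher members were inhibitors of the INK4 family: Cdkn2d (38.2 against 4.80 CPM), Cdkn2c (34.6 against 5.23 CPM) and Cdkn2a (26.7 against 16.5 CPM). Cdkn2b, of the same family and more abundant than these, was lower, at 78.5 against 154.7 CPM. Cdkn2d was at 6.12 CPM in intermediate cells, near its non-dividing level. The call of Tob1 was lost on thinned cells (0.35). Cdkn1b (p27) had medians of 12.1 and 7.58 CPM and was within the fold pooled (15.3 against 11.4 CPM).

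Of the 12 genes with the lowest ratios outside the cell cycle lists, the lowest without a dominant cell was Mxd4 (chr5:34173883-34187720, minus strand), a repressor that competes with Myc for its partner Max. It had 0 to 156.2 CPM in dividing cells (median 8.53), 0 to 299 in intermediate cells (median 19.2) and 13.9 to 420 in non-dividing cells (median 112.7). One dividing cell exceeded the non-dividing median, 18 of 54 had no UMI, and every non-dividing cell had some. The pooled ratio was 0.097 (counting interval 0.080 to 0.12), and 0.066 to 0.16 over the 19 other settings. After thinning, Mxd4 was seen in 22 of 54 dividing and 57 of 59 non-dividing cells (40.7% and 96.6%). Fbxo32, a ubiquitin ligase known from muscle wasting and a target of FOXO factors, was at 4.04 against 41.2 CPM, Rgs17 at 3.75 against 34.2, Smim24 at 3.56 against 26.6 and Ypel2 at 9.42 against 65.97 CPM. Rgs17 and Smim24 lost the call on thinned cells, where most cells had no UMI. Prss2, Muc5ac, Prl2c3, Mucl3, Psca, Tff1 and 1700030N03Rik were the others of the 12, but over 25% of their non-dividing UMIs came from 1 cell (27.3% to 97.9%).

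Acinar enzymes were low in most cells of both classes. The 26 enzyme and granule genes summed to 48.1 to 2162 CPM in dividing cells (median 124.3) and to 0 to 285847 CPM in non-dividing cells (median 161.8), and 41 of 54 dividing cells were below the non-dividing median. Pooled levels were 175.4 and 6705 CPM, and the latter rested on a few cells: it was 1122 CPM without the cell titled Acinar52, 372 without the 4 most enzyme-rich cells and 222 without 5. Of the 8 cells with the highest enzyme sums 7 were non-dividing. Of 15 described members 2 were lower, Prss2 (anionic trypsinogen) and Cela1 (an elastase), beside 10.5% of all genes. Prss2 was at 11.2 against 1096 CPM pooled, but at 7.04 against 14.96 CPM in the median cells, and its ratio was 0.44 without the top cell of each class. It did not pass without the 4 enzyme-rich cells (0.70). Cela1 was at 6.06 against 25.2 CPM, with 68.4% of the non-dividing UMIs in 1 cell, and did not pass on thinned cells (0.21). Ctrb1, a chymotrypsinogen and the most abundant enzyme, had medians of 72.9 CPM in dividing, 87.04 in intermediate and 95.2 in non-dividing cells.

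The 3 described acinar transcription factors were within the fold. Gata4 was at 7.11 against 23.1 CPM pooled, but at 3.92 against 5.21 CPM in the median cells. Nr5a2, which sustains acinar identity, had medians of 18.4 and 22.02 CPM and was seen in 30 of 54 dividing and 37 of 59 non-dividing cells after thinning. Xbp1, of the secretory pathway, was at 109.3 against 125.7 CPM. Ptf1a, the master regulator of acinar cells, had 0 UMIs in the dividing and intermediate classes and 29 UMIs in the non-dividing class, all in 1 cell. Bhlha15 (Mist1) was seen in 8 of 54 and 9 of 59 cells before thinning, and in 2 and 4 after.

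Duct genes were present in all classes. Of 17 described, 13 were within the fold, 2 higher and 2 lower, shares not far from those over all genes (15.3% and 10.5%). The list summed to medians of 10358 CPM in dividing and 12228 CPM in non-dividing cells. In 46 of 54 dividing cells the sum was under the non-dividing median. Krt7, a duct keratin, ran from 563 to 9092 CPM in dividing and from 217 to 11589 CPM in non-dividing cells, with medians of 3233 and 2596 CPM and pooled levels of 3494 and 3678 CPM. Krt19 had medians of 1432 and 1750 CPM, Spp1 (osteopontin) of 1064 and 1449 CPM, and Sox9, the duct and progenitor factor, of 45.1 and 63.5 CPM. All 3 were within the fold. Slc4a4 (chr5:88886818-89239653, plus strand), the sodium bicarbonate cotransporter, was lower, with medians of 80.6 and 244 CPM and 51 of 54 dividing cells under the non-dividing median. Prom1 (CD133) was lower at 272 against 423 CPM and did not pass among titles from 97 (0.70). Cftr, the chloride channel, was at 34.996 against 22.8 CPM, a ratio of 1.54, and fell short of the fold on thinned cells (1.09). Sctr, the secretin receptor, was at 22.02 against 4.03 CPM, with 63.8% of the dividing UMIs in 1 cell.

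Genes of epithelial junctions were lower in part. Of 15 simple epithelial and junction genes 5 were lower and 1 higher (10.5% and 15.3% over all genes), and 51 of 54 dividing cells summed to less than the non-dividing median (medians 9912, 12294 and 14919 CPM from dividing to non-dividing). Cldn4 (chr5:134945119-134946934, minus strand), a tight junction claudin, had 5.92 to 1044 CPM in dividing cells (median 239) and 0 to 3295 CPM in non-dividing cells (median 870). All but 2 dividing cells were under the non-dividing median, and the pooled ratio was 0.33 (0.32 to 0.34). Ocln, also of tight junctions, had medians of 28.5 and 70.2 CPM, Cldn3 was at 199 against 328 CPM, Cdh1 (E-cadherin) at 393 against 636 CPM, and Elf3, an epithelial transcription factor, at 84.4 against 143.8 CPM. Ocln (0.54) and Elf3 (0.64) did not pass among titles up to 96. The keratins Krt8 (medians 4232 and 6632 CPM) and Krt18 (2294 and 3044 CPM) were within the fold. Of 15 laminin, integrin and matrix receptor genes 3 were lower, beside 10.5% of all genes, among them Lamb1 (21.5 against 61.1 CPM) and Itgb4, a hemidesmosome integrin (169.6 against 310 CPM), and none higher. Itgb4 did not pass among titles up to 96 (0.57).

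Injury and metaplasia genes were high in both classes. Of 31 described, 26 were within the fold, 2 were higher and 3 lower (15.3% and 10.5% over all genes). As a list they were lower in dividing cells, with summed medians of 26523 CPM in dividing and 37877 CPM in non-dividing cells. The sum was under the non-dividing median in 52 of 54 dividing cells. Pooled ratios were under 1 in 23 members and over 1 in 8. The genes past the fold included the most abundant member of the list. Clu (chr14:65968483-65981547, plus strand), which encodes the secreted chaperone clusterin and marks regenerating epithelia, ran from 2397 to 14053 CPM in dividing cells (median 5608), from 3214 to 14476 in intermediate cells (median 6062) and from 2595 to 27648 in non-dividing cells (median 11461). All but 2 of the 54 dividing cells lay under the non-dividing median, although the ranges overlapped. The pooled ratio was 0.48 (0.47 to 0.48), was 0.44 to 0.52 over the 19 other settings, some of which cannot move it, and was 0.49 in cells with at least 100000 UMIs. Within dividing cells Clu had a rho of -0.42 with UMIs per cell and of -0.06 with the level of the 21 genes. Sprr1a, a cornified envelope protein induced in damaged epithelium, had medians of 88.2 and 407 CPM with wide ranges (0 to 2509 and 24.8 to 9747 CPM), and Cd44 was at 322 against 563 CPM.

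Ccl20, a chemokine, was higher at 122.4 against 67.9 CPM, with 24.9% and 41.9% of the UMIs of each class in 1 cell. Timp1, a metalloproteinase inhibitor, was higher at 31.3 against 16.03 CPM, but its ratio was 0.19 when the 6 fibroblast-rich cells were sorted into the classes too. Lcn2 (lipocalin 2) had pooled levels of 1354 and 1399 CPM and medians of 722 and 300 CPM, so its direction depended on the measure, and among titles from 97 it was higher with a pooled ratio of 1.53. Anxa2, S100a6 and Mmp7, markers of metaplasia, had medians of 3973 and 4027, 3190 and 4157, and 1606 and 1068 CPM in dividing and non-dividing cells, all within the fold.

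Of 11 described gastric surface and mucous genes, which appear in pyloric-type metaplasia, 4 were lower and none higher (10.5% and 15.3% over all genes). Summed levels were 236 to 7652 CPM in dividing cells (median 800) and 226 to 146582 CPM in non-dividing cells (median 1265), and the 8 highest cells were all non-dividing. In 18 of 54 dividing cells the sum was over the non-dividing median. Pooled, the sum was 1394 against 7057 CPM, and the latter was 4681 CPM without the cell titled Acinar22 and 3083 CPM without the 5 cells richest in enzymes and gastric transcripts. Tff1, a trefoil peptide, had medians of 177.1 and 291 CPM and pooled levels of 303 and 2297 CPM. Muc5ac (15.4 against 464 CPM), Psca (43.9 against 626 CPM) and Tff1 drew much of their non-dividing level from few cells, and Psca and Tff1 did not pass without those 5 cells, at 0.50 and 0.32 pooled. Tff2, another trefoil peptide, had the opposite direction and was within the fold, at 314 against 258 CPM pooled and 82.2 against 45.9 CPM in the median cells. Ctse (cathepsin E) passed without those cells too, at 0.51: its medians were 140.6 and 321 CPM, and 49 of 54 dividing cells were below the non-dividing median.

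**Figure D4:**
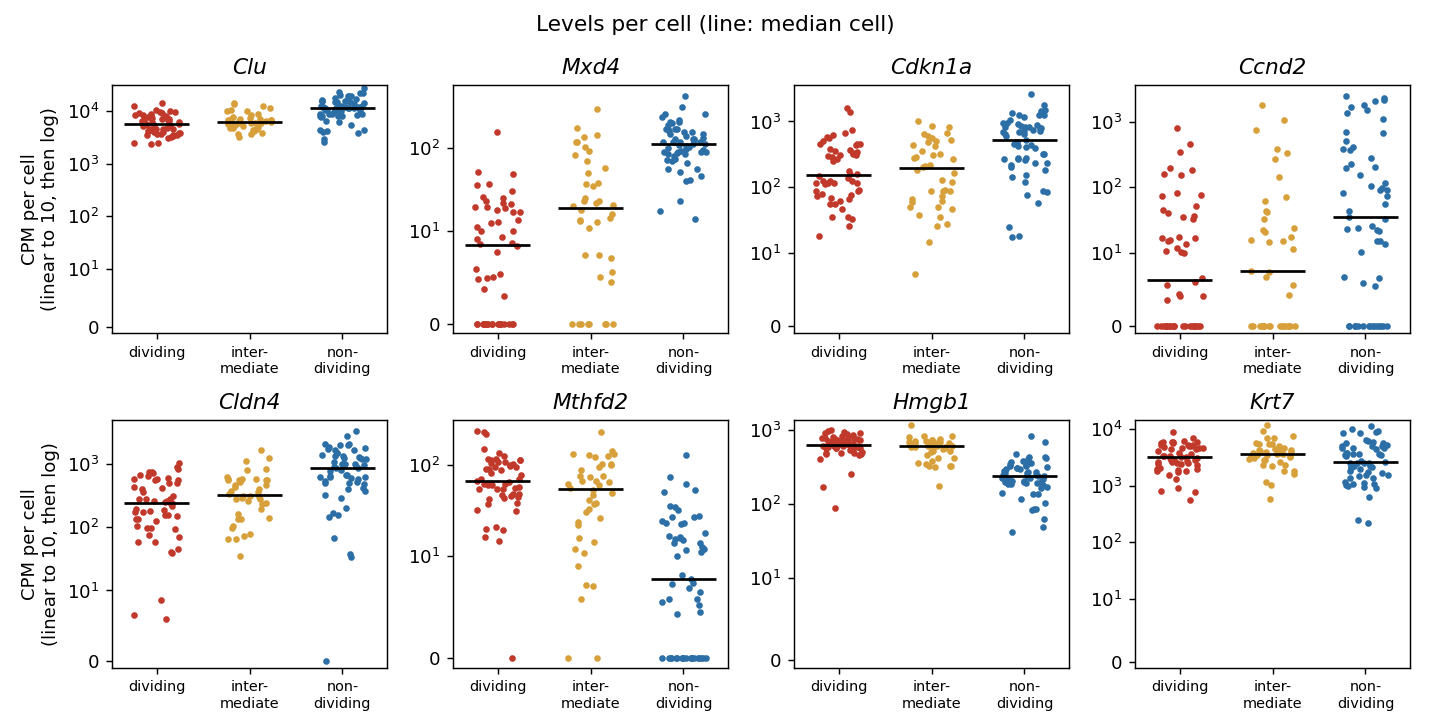
Levels of 8 genes in each dividing, intermediate and non-dividing cell (CPM, linear to 10 and log above), 1 point a cell and a line at the median cell. Clu, Mxd4, Cdkn1a, Ccnd2 and Cldn4 were lower and Mthfd2 and Hmgb1 higher in dividing cells, with overlapping ranges in each gene, while Krt7 had medians of 3233 and 2596 CPM.

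Metabolism differed most in biosynthesis. Of 27 genes of nucleotide, serine and folate synthesis 17 were higher and none lower (15.3% and 10.5% over all genes), and their sum was 4162 CPM in the median dividing, 4091 in the median intermediate and 2583 in the median non-dividing cell. Mthfd2 (chr6:83305691-83325908, minus strand), the mitochondrial folate enzyme of proliferating cells, had 0 to 233 CPM in dividing cells (median 65.8) and 0 to 126.1 CPM in non-dividing cells (median 7.74, none in 19 of 59). All but 1 of the dividing cells were above the non-dividing median, and the pooled ratio was 5.09 (4.24 to 6.15). Psat1, of serine synthesis, had medians of 86.7 and 10.97 CPM (ratio 4.43). Cad, which starts pyrimidine synthesis, had medians of 82.3 and 24.8 CPM (ratio 3.10), and Mthfd1, the cytosolic counterpart of Mthfd2, of 113.5 and 39.3 CPM (ratio 2.69). Umps, Impdh2, Gart, Shmt1, Shmt2 and Phgdh were higher at ratios of 1.84 to 2.53. The pentose phosphate enzymes Tkt (909 against 803 CPM), Pgd (416 against 411 CPM) and G6pdx (94.3 against 73.2 CPM) were within the fold.

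Ribosome assembly was the other broad difference, with 17 of 20 genes higher and none lower (15.3% and 10.5% over all genes). The list summed to medians of 5097, 5186 and 2512 CPM from dividing to non-dividing. Ncl (nucleolin) ran from 449 to 3153 CPM in dividing and from 76.6 to 2096 CPM in non-dividing cells, with medians of 1628 and 722 CPM. Npm1 had medians of 807 and 498 CPM, Dkc1 (dyskerin) of 255 and 101.8 CPM, and Nhp2, its partner, of 283 and 116.7 CPM. The 84 described cytosolic ribosomal protein genes were all within the fold, at a summed median of 99362 against 95055 CPM.

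Cholesterol synthesis genes were higher in 10 of 20 cases and lower in none (15.3% and 10.5% over all genes), with medians of 2555, 2140 and 1400 CPM. Lss (lanosterol synthase) had medians of 123.8 and 27.9 CPM, Idi1 of 69.4 and 22.02, Mvk of 62.98 and 25.1 and Pmvk of 164.3 and 61.7 CPM. Hmgcs1 was within the fold pooled (324 against 262 CPM), with medians of 335 and 124.9 CPM and 14.5% of its non-dividing UMIs in 1 cell. Among fatty acid genes 5 of 17 were higher, all of synthesis or desaturation: Scd1 (31.4 against 9.05 CPM), Elovl6 (181.1 against 88.6), Scd2 (464 against 265), Fasn (142.9 against 92.1) and Acaca (74.8 against 49.3). The 1 lower gene, Cpt1a, is the gate of fatty acid oxidation in mitochondria (32.5 against 52.2 CPM).

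Energy metabolism varied less by gene (15.3% of all genes were higher and 10.5% lower). Pooled ratios were over 1 in 11 of 14 glycolysis, 37 of 40 nuclear oxidative phosphorylation and 17 of 19 citrate cycle genes. The other 3, 3 and 2 were under 1. Summed medians in dividing and non-dividing cells were 6543 and 5468, 15269 and 12238, and 2770 and 2177 CPM in that order. In 44, 48 and 49 of 54 dividing cells the sum was over the non-dividing median. Of 14 glycolysis genes 1 was higher (Pfkp, 60.8 against 34.02 CPM) and 1 lower (Hk1, 51.8 against 94.4 CPM). Gapdh had medians of 1000 and 800 CPM, Ldha of 705 and 467 CPM and Pkm of 1651 and 1465 CPM, all within the fold. Of 40 nuclear oxidative phosphorylation genes 3 were higher, Cycs (cytochrome c, 596 against 326 CPM), Cyc1 (253 against 149.2) and Atp5o (383 against 231), and 2 of 19 citrate cycle genes, Idh3a (91.1 against 48.6) and Fh1 (191.7 against 124.95). Fh1 did not pass in 7 of the other settings at the same fold, among them each set of titles (1.62 and 1.44), and Hk1 did not pass among titles up to 96 (0.69). Mitochondrially encoded genes ran the other way in level, with medians of 8750 and 11339 CPM, and 15 of 17 described were within the fold.

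Of 15 hypoxia-induced genes 4 were lower, beside 10.5% of all genes: Ndrg1 (medians 23.98 and 40.4 CPM), Ddit4 (136.5 and 255), Vegfa (26.7 and 41.2) and Mxi1 (9.67 and 20.9). Ndrg1 (0.53) and Vegfa (0.72) did not pass among titles up to 96. Car9 (162.1 against 154.4 CPM) and the glucose transporter Slc2a1 (212 against 256 CPM), also induced by hypoxia, were within the fold. Among 20 genes of the NRF2 and glutathione response 18 were within it, and the sums were nearly equal at medians of 9150 and 9116 CPM.

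Immediate early genes, which respond to growth signals and stress within minutes, were lower in 10 of 19 cases and higher in none (10.5% and 15.3% over all genes). Their sum had a median of 2554 CPM in dividing and 3876 CPM in non-dividing cells. Dusp1, a phosphatase that restrains MAP kinases, had medians of 14.3 and 58.3 CPM, with 52 of 54 dividing cells under the non-dividing median. Jun was at 120.1 and 274 CPM in the median cells, Ier3 at 206 and 349 and Fosl2 at 25.1 and 47.1, while Fos (282 against 337 CPM pooled), Egr1 (230 against 301) and Junb (541 against 768) were within the fold. Of 13 YAP targets only Amotl2 was past the fold, lower at 27.8 against 42.4 CPM and within it on reads in place of UMIs (0.72). Ankrd1 had a higher median in dividing cells (326 against 152.7 CPM) and a lower pooled level (889 against 1064).

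Of 9 described factors of the pancreas and foregut only Sox4 was past the fold, lower with medians of 120.6 and 314 CPM. Over all genes 15.3% were higher and 10.5% lower. The list summed to medians of 929 CPM in dividing and 1229 CPM in non-dividing cells. In 47 of 54 dividing cells the sum was under the non-dividing median. Pdx1 was seen in 34 of 54 dividing and 31 of 59 non-dividing cells after thinning and was within the fold (27.3 against 19.6 CPM), as were Hnf4a (137.96 against 201), Gata6 (52.6 against 53.9) and Hhex (209 against 181.9).

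Of 19 genes of the unfolded protein and amino acid response 4 were higher and 3 lower, shares not far from those over all genes (15.3% and 10.5%). The higher ones included the chaperone-type genes Hsp90b1 (1494 against 892 CPM) and Manf (190.1 against 101.7), and the lower ones were Ddit3 (14.5 against 23.99), Trib3 (7.11 against 14.2) and Sesn2 (12.9 against 19.7). Trib3 and Ddit3 did not pass on thinned cells (0.69 and 0.59). Of 12 antigen presentation and interferon genes 3 were lower and 2 higher (10.5% and 15.3% over all genes). Tap2 (15.2 against 28.2), Tapbp (79.2 against 132.4) and Irf1 (25.8 against 42.3) were the lower ones, Stat2 (30.9 against 17.8) was among the higher, and H2-D1 and H2-K1 were within the fold. Irf1 (0.65) and Tap2 (0.62) did not pass on thinned cells, nor Tapbp among titles up to 96 (0.68). For Stat2, 40.2% of the dividing UMIs lay in 1 cell, and its ratio was 0.97 between classes set at 4000 and 250 CPM.

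Pecam1, known from endothelium, was higher in dividing cells, at 19.997, 16.02 and 4.47 CPM from dividing to non-dividing, with 31.7% of the dividing UMIs in 1 cell and UMIs in 42 of 54 dividing and 21 of 59 non-dividing cells. The call was lost on thinned cells (3.12). The other 7 endothelial markers were all under 3 CPM in every class and Kdr was at 0. The insulin gene Ins1 was lower (13.7 against 24.2 CPM; not on thinned cells, 0.53) and Ins2 within the fold (30.96 against 51.4), while Gcg, Chga and Neurod1 were under 1 CPM in each class.

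**Figure D5:**
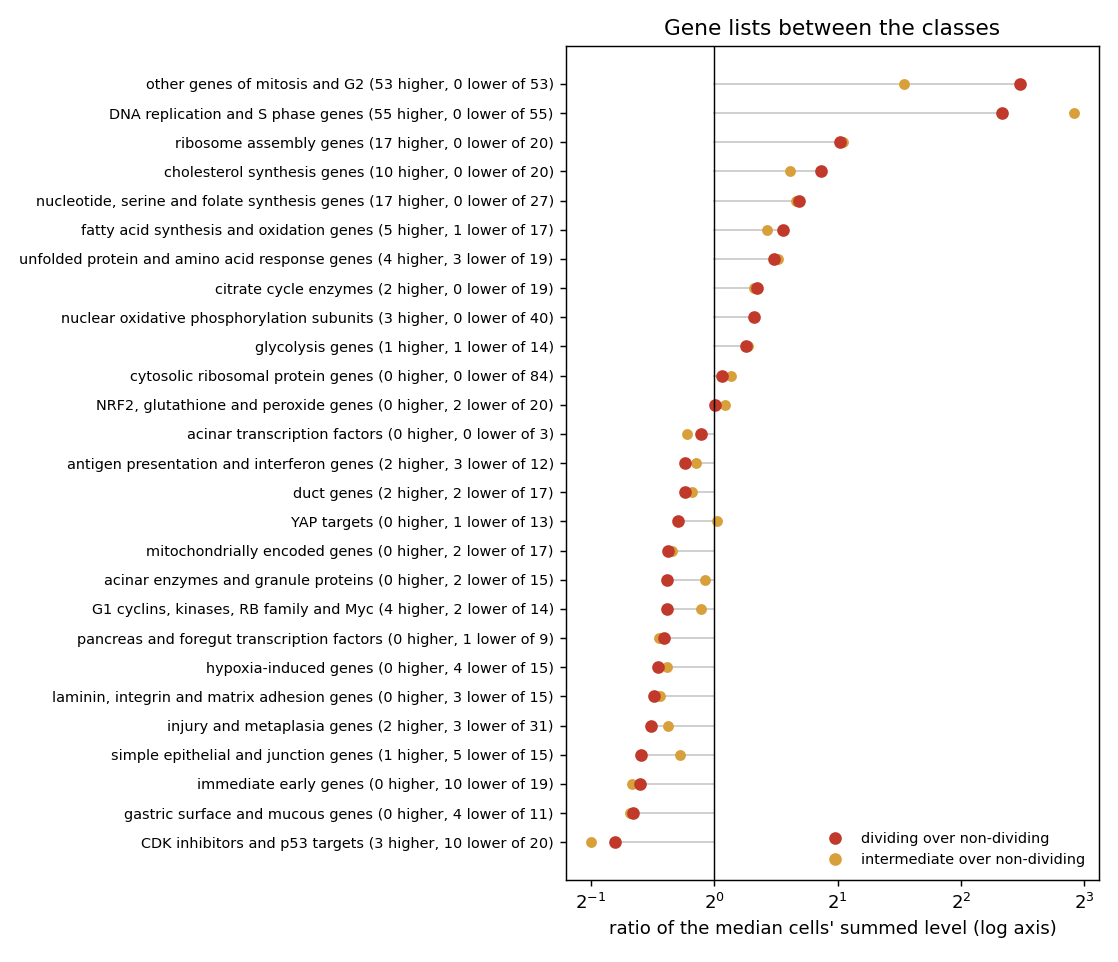
Ratio of the median cell's summed level in dividing (red) and intermediate cells (yellow) to that in non-dividing cells, for each gene list, on a log axis, with the counts of described members higher and lower. Replication was highest in intermediate cells, while ribosome assembly was 2.03 and 2.06 times the non-dividing level and CDK inhibitors with p53 targets 0.57 and 0.50 times.

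Several lists that the sorting did not use had similar levels in intermediate and dividing cells. Against non-dividing cells, ribosome assembly was 2.03 times as high in the median dividing and 2.06 times as high in the median intermediate cell, nucleotide and serine synthesis 1.61 and 1.58 times, immediate early genes 0.66 and 0.63 times and CDK inhibitors with p53 targets 0.57 and 0.50 times. Epithelial junction genes (0.66 and 0.82) and YAP targets (0.82 and 1.01) were nearer to the non-dividing level in intermediate cells.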

How the data were processed

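RNA was measured by Smart-seq3 in 179 single cells, each a sample of its own. The authors deposited raw UMI counts and raw read counts per gene for every cell, with no normalization. The submitters' processing notes name STAR, featureCounts, GRCm38 and mm10, with no version. Details of UMI collapsing, of the choice of cells and of doublets are not given in the sources used here, and no doublet caller was run on single wells. Of 32100 identifiers 31963 had a symbol, and those without one held 0.0932% of UMIs. No 2 cells had identical counts.

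The classes, members and lists were chosen with earlier results of these data known. Cells with at least 40000 UMIs were classed by the summed CPM of 21 genes. Per class, UMIs were pooled and scaled to CPM, with exact 95% Poisson intervals and an exact conditional interval for ratios; these cover counting error only, and a class at 0 was set to 3 UMIs. Genes with at least 10 CPM over the 3 classes were described. With a median of 0 in non-dividing cells, any median above 0 counted as higher. Named genes are the 21 genes, the 12 highest others, the 12 highest and 12 lowest outside the cell cycle lists, the 4 most changed and 2 most abundant members of each list, and a set of well-known pancreas genes; other list members are given as examples. Genes of the 3 promoters for comparison, and those in the closing observations, were chosen after their values were seen.

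Alternatives were reads in place of UMIs, other folds, filters, class limits, totals and depths, either range of title numbers, and leaving out cells. Promoters are RefSeq's (GRCm38.p6), matched by symbol. Python 3.11.15, numpy 2.4.6, pandas 2.3.3, scipy 1.17.1 and matplotlib 3.10.9 were used. Some members of the lists are not reported here.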

Additional observations from a re-analysis of the deposited data

How the results depend on the processing

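The counts of 1573 higher and 1079 lower genes moved to 731 and 343 at a fold of 2, and to 642 and 364 with a filter of 50 CPM, which also describes fewer genes. The other settings gave 1347 to 1986 higher and 912 to 1539 lower genes. After thinning to 40000 UMIs, 1138 of the 1573 and 665 of the 1079 kept their call; with titles up to 96 alone 1285 and 742 did and 2 genes had opposite calls. Between reads and UMIs 1413 and 848 were shared. Of 490 levels of lists under other settings, 488 were within 1.5 times of the value reported. A fold of 2 leaves these levels as they are, so that setting could not move them. Reversal was counted only for lists at least 1.5-fold apart between the classes, and none was found there. Lists nearer to equal levels were not counted as reversed if they changed direction. The endocrine list was at 0.22 with titles up to 96 and 0.80 with titles from 97, against 0.47. Direction was reversed for Stat2 (0.97 with classes at 4000 and 250 CPM), Lcn2 (1.53 with titles from 97) and Timp1 (0.19 with the 6 fibroblast-rich cells); the causes of these changes were not tested. No paired analysis was possible because the cells form 1 group. Depth limits genes near the filter of 10 CPM, which have few UMIs in a cell.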

Other observations

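The groups below were chosen after values were seen and are descriptions. Among 11 described factors of the MAX network, Mxd3 was the only MXD gene higher in dividing cells, at 25.7, 3.35 and 0.654 CPM from dividing to non-dividing, with no UMI in 54 of 59 non-dividing cells. Mxd1 (17.2, 10.8 and 82.9 CPM), Mxi1 (11.7, 14.1 and 34.02 CPM) and Mxd4 were lower, and the shared partner Max was level (26.2, 29.7 and 25.4 CPM). All 3 described Ypel genes, a conserved family of small proteins, were lower, beside 10.5% of all genes. Ypel3 had medians of 11.9 and 95.9 CPM, with 1 of 54 dividing cells above the non-dividing median. Ypel5 had medians of 11.7 and 34.3 CPM. The long noncoding RNA Neat1, the scaffold of nuclear paraspeckles, ran from 95.6 to 6589 CPM in dividing cells (median 424) and from 283 to 7205 CPM in non-dividing cells (median 1290), and 52 of 54 dividing cells were under the non-dividing median. Malat1 had medians of 264, 183.5 and 587 CPM. Chd9, a chromatin remodeller, had medians of 1972, 2766 and 3708 CPM.

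Lysosomal and autophagy genes were lower in part, with 6 of 27 and 8 of 22 described members, beside 10.5% of all genes. Ctsd (cathepsin D) had 93.6 to 688 CPM in dividing cells (median 232) and 177.3 to 1817 CPM in non-dividing cells (median 608). Sqstm1 (p62) had medians of 129.03 and 276 CPM, without passing among titles up to 96 (0.58), and Map1lc3a of 4.07 and 23.03 CPM. Itm2b, a membrane protein processed to secreted peptides, had no dividing cell at the non-dividing median or above: 117.6 to 619 CPM (median 372) against 228 to 2665 CPM (median 735). All 7 spliceosomal Sm core genes were higher, beside 15.3% of all genes, with medians of their sum of 2652 and 1558 CPM. Hmgb1, an abundant chromatin protein, had medians of 625, 605 and 238 CPM, and Hspd1, the mitochondrial chaperonin, of 504, 514 and 209 CPM. Rangap1, which works in nuclear transport and at kinetochores, had 378 to 907 CPM in dividing and 40.4 to 389 CPM in non-dividing cells, and the ranges overlapped only between 378 and 389 CPM. Prl2c2 and Prl2c3, prolactin-family genes with near-identical copies, were both lower, and 67.2% of the dividing and 43.1% of the non-dividing UMIs of Prl2c2 were in 1 cell of each class.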
